A study of Mus musculus with 8 samples.

Results

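Retinal ganglion cells are the output neurons of the retina. Their identity genes were followed in whole retinas of wild-type (WT) mice and of rd10 mice, a model of inherited photoreceptor degeneration. The 10 genes were chosen by name as markers of this cell type, out of 57010 gene identifiers in the count table. They comprise the transcription factors Pou4f1, Pou4f2 and Pou4f3, the RNA-binding protein gene Rbpms, the synuclein gene Sncg, the neurofilament genes Nefl, Nefm and Nefh, the surface glycoprotein gene Thy1 and the vesicular glutamate transporter gene Slc17a6. All 10 passed the filter on low counts, with 20457 genes tested in all.

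Poly(A) RNA of 8 libraries was sequenced, each from 1 whole retina. There were 2 libraries from WT retinas at postnatal day 15 (P15) and 2 each from rd10 retinas at P15, P18 and P21. The rd10 mice were homozygous for the rd10 allele, a mutation of the rod phosphodiesterase gene Pde6b, and the study's methods name wild-type littermates as controls. The labels name no treatment for these groups. WT retina of P18 or P21 was not analysed here, so P18 and P21 rd10 retina differed from WT in both age and genotype. All comparisons with WT shared the same 2 libraries.

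Ganglion cells receive signals from bipolar and amacrine cells and send their axons through the optic nerve to the brain. They lie in the innermost cell layer, far from the rods that the rd10 mutation affects first. POU4 transcription factors direct their differentiation and survival, neurofilaments fill their long axons, and VGLUT2, the product of Slc17a6, loads their synaptic vesicles with glutamate. None of these genes is used by ganglion cells alone, but within the retina they are widely taken as markers of this cell type. The cells that held their RNA were not identified here. In RNA of a whole retina, fewer ganglion cells and less RNA per ganglion cell cannot be told apart.

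Upstream sequences are shown for members with promoters in the RefSeq table (GRCm38.p6), so that what lies before the starts of genes with a common course can be compared. Windows of 250 bases before an annotated start were held for 4 members, with 2 starts for Slc17a6, giving 5 windows. The window of Sncg overlapped an annotated exon by 120 bases and is not printed. The Pou4f1 window lies at chr14:104468000-104468249 on the minus strand, and that of Pou4f2 at chr8:78436648-78436897 on the minus strand. Those of Slc17a6 lie at chr7:51621580-51621829 and chr7:51624387-51624636 on the plus strand, the second of them inside an intron of the longer transcripts. For both Slc17a6 windows the bases after the start were not found in a GENCODE M21 transcript of the gene. In that annotation the gene starts at 51622006. Each is written 5′ to 3′ on the gene's strand, and capitals mark the motifs that were found.
Pou4f1: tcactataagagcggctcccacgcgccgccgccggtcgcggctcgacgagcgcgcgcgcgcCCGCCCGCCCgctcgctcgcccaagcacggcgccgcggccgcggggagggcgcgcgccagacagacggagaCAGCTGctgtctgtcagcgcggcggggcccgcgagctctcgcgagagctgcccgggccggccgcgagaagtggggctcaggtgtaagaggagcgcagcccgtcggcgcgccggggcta
Pou4f2: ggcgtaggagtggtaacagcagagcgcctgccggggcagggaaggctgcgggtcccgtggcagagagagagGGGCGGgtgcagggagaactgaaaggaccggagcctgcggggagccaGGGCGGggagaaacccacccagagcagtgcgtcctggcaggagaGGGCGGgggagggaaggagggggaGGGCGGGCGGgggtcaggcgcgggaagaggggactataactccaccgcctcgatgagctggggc
Slc17a6, first start: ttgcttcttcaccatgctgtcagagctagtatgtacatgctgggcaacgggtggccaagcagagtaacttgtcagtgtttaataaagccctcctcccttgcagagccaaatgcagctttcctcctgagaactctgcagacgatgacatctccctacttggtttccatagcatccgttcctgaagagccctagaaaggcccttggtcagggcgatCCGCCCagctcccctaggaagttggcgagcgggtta
Slc17a6, second start: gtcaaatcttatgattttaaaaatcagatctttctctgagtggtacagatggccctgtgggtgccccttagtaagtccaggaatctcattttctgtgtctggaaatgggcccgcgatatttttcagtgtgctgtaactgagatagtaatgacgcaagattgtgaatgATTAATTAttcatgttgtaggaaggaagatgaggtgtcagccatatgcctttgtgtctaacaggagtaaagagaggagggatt

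6 motifs were searched on both strands. The GC box GGGCGG was in 4 of the 5 windows, against 32.7% of 32851 promoter windows of the same length. Pou4f2 held 5 copies, at 179, 132, 88, 64 and 60 bases before the start, with the last pair overlapping. ATTAAT, a core of the sequence known to be bound by POU4 factors, and the homeodomain core TAATTA were found only in the second Slc17a6 window, where they overlap as 1 stretch of letters. These motifs were in 4.4% and 4.8% of all windows. The E-box CAGCTG was found in the Pou4f1 window and in 13.0% of all windows, whereas the TATA box TATAAA (12.4% of all) and CCAAT (33.8%) were in none of the 5. The Pou4f1 window had a GC content of 78.0% and 47 CpG dinucleotides, compared with medians of 52.4% and 6 over all windows, and the second Slc17a6 window had 41.2% and 3. A match of letters is a description and shows no binding.

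The libraries held between 28076947 and 33724562 counts. Values are given as CPM, the count of a gene relative to the total of its library after TMM scaling. Replicate 1 of the P18 rd10 group stood apart from its partner: its log2 CPM minus that of replicate 2 had a median of 0.33 in short genes (exons of at most 2522 bases) and -0.28 in long genes (at least 5057 bases), while the other groups stayed between -0.02 and 0.04. RNA of Y-linked genes was present in both P15 rd10 libraries and in replicate 1 of P18 and of P21 (5530 to 7193 counts), and nearly absent from the other 4 libraries (3 to 19 counts), which include both WT libraries. Genotype at P15 thus went together with sex.

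The level of each member was compared per kilobase of exon, which allows genes of different length to be set side by side. In WT retina the order by mean CPM per kilobase was Nefl (271.7), Sncg (129.1), Thy1 (74.6), Nefm (57.6), Nefh (46.7), Slc17a6 (23.1), Pou4f1 (10.2), Rbpms (5.99), Pou4f2 (5.82) and Pou4f3 (4.32). Only Rbpms and Pou4f2 overlapped as neighbours in this order. In P15 rd10 retina Nefm (98.8 CPM per kilobase) stood above Thy1 (84.2), the reverse of their order in the other 3 groups, and Pou4f2 and Pou4f3 overlapped. Overlapping neighbours were Rbpms and Pou4f2 at P18, and Pou4f3 and Pou4f2 at P21. The neurofilament light chain was thus the most abundant member per length in all 4 groups, and the POU4 factors and Rbpms the least.

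All 10 members had a higher level in P15 rd10 retina than in WT retina of the same age, and in every case both rd10 libraries lay above both WT libraries. Of all genes tested, 48.8% were higher. Libraries separated upward in this way for 24.8% of all tested genes. The median log2 fold change of the members was 0.42, from 0.17 for Thy1 to 0.78 for Nefm, beside a median of -0.01 over all genes tested. No member was called at an edgeR adjusted p under 0.05 with a fold change beyond 1 on the log2 scale, a rule met by 0.23% of all genes. Unadjusted p was under 0.05 for 6 members, all higher, compared with 6.61% of genes. DESeq2 called no member either, although 2 (Nefm and Nefh) had adjusted p under 0.05 at smaller fold changes. With DESeq2, 3.88% of genes passed that adjusted p. The smallest p that an exact permutation of 2 libraries against 2 can give is 0.333, so single genes rest on the spread shared across genes.

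**Figure D1:**
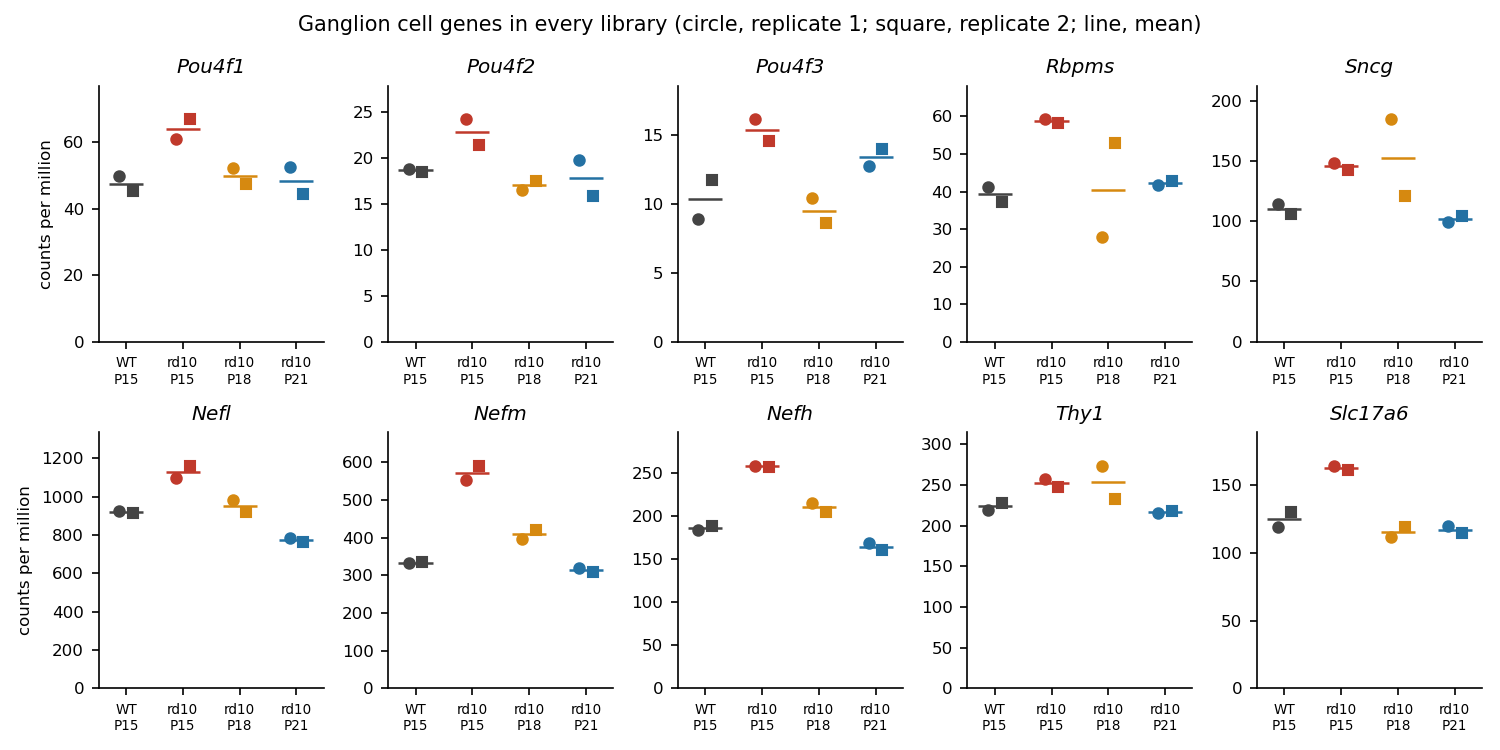
Level of the 10 ganglion cell genes in CPM (vertical axis, from 0) in the 2 libraries of each group, with the group mean as a line. Both P15 rd10 libraries lay above both WT libraries for every gene, and both P21 rd10 libraries lay below both P15 rd10 libraries.

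Among the transcription factors, Pou4f1 (BRN3A), which maintains the expression of ganglion cell genes, was at 49.9 and 45.3 CPM in WT retina, 61.0 and 66.9 in P15 rd10 retina, 52.2 and 47.4 at P18, and 52.4 and 44.3 at P21. The P15 rd10 pair was the highest and the other 3 groups overlapped. Its log2 fold change at P15 was 0.43 (SE 0.148; adjusted p = 0.29). Pou4f2 (BRN3B), an early determinant of ganglion cell fate, was at 18.8 and 18.5 CPM in WT retina, 24.2 and 21.3 in P15 rd10 retina, 16.5 and 17.5 at P18, and 19.8 and 15.9 at P21. Again only the P15 rd10 libraries stood apart from the rest, with a log2 fold change of 0.29 over WT (95% interval -0.14 to 0.71).

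Pou4f3 (BRN3C), expressed in a subset of ganglion cells, was the least abundant member per length in WT retina. It was at 8.94 and 11.8 CPM in WT retina, 16.2 and 14.6 in P15 rd10 retina, 10.5 and 8.60 at P18, and 12.8 and 14.1 at P21. In contrast to the other POU4 genes, the P21 libraries lay above both WT libraries and above both P18 libraries. The log2 fold change at P15 was 0.57 (95% interval 0.05 to 1.09; unadjusted p = 0.0358, adjusted p = 0.362 with edgeR).

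Rbpms encodes an RNA-binding protein that marks nearly all ganglion cells in the retina. Its level was 41.3 and 37.2 CPM in WT retina, 59.2 and 58.3 in P15 rd10 retina, 27.8 and 52.9 at P18, and 41.6 and 42.8 at P21. The P18 libraries differed by 0.93 on the log2 scale, far more than any other pair for this gene (at most 0.15). Rbpms is the longest member, with 6556 bases in exons, and the low value came from the replicate in which long genes were low. Its log2 fold change at P15 was 0.58 (95% interval -0.02 to 1.18), with 0.48 to 1.05 over the 16 alternative settings, highest with a term for Y-linked RNA. Its adjusted p was 0.419 with edgeR.

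Sncg encodes gamma-synuclein, a small protein abundant in ganglion cell bodies and axons. It was at 114 and 106 CPM in WT retina, 149 and 142 in P15 rd10 retina, 184 and 121 at P18, and 99.2 and 104 at P21. The first P18 library was the highest of all 8, and the P21 pair lay below the remaining libraries. With 852 bases in exons Sncg is the shortest member, and the high P18 value came from the replicate in which short genes were high. The log2 fold change of P18 over WT was 0.47 (unadjusted p = 0.036, adjusted p = 0.251 with edgeR). It was 0.75 without replicate 2 of P18 (adjusted p = 0.00333) and 0.14 under the lowest of the 16 alternative settings. The part of gene length in these differences was not tested.

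**Figure D2:**
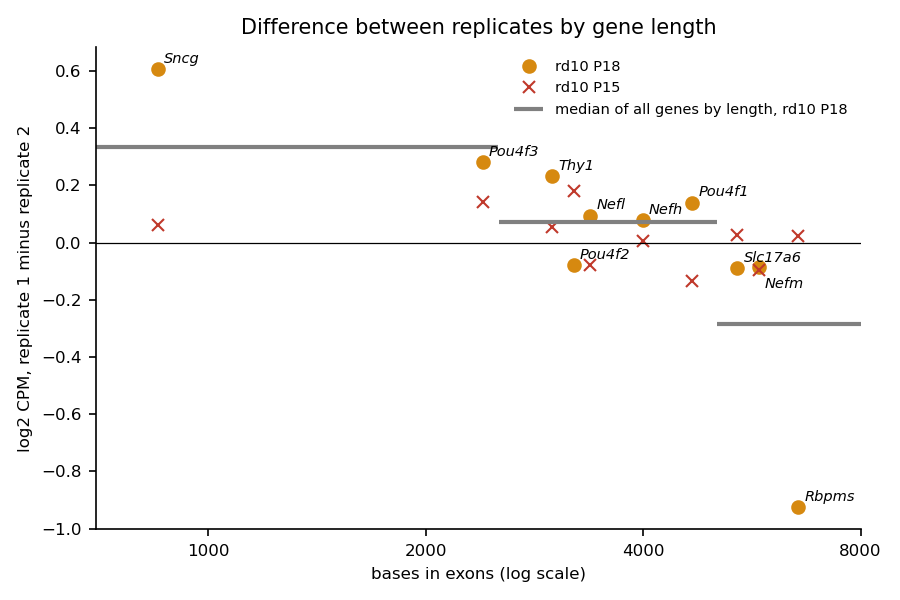
Difference in log2 CPM between replicate 1 and replicate 2 (vertical axis) against the bases in exons (horizontal axis, log scale) for the 10 genes at P18 and P15 in rd10 retina. Grey lines give the median of all genes in 3 length classes at P18, which falls from 0.33 to -0.28. Sncg and Rbpms lie at opposite ends at P18, whereas all P15 rd10 differences are small.

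The neurofilament genes encode the light, medium and heavy chains of the intermediate filaments that set axon calibre. Nefl was at 925 and 912 CPM in WT retina, 1098 and 1160 in P15 rd10 retina, 984 and 922 at P18, and 783 and 761 at P21. The P15 rd10 pair was the highest and the P21 pair the lowest. Its log2 fold change at P15 was 0.30 (SE 0.122; unadjusted p = 0.0395, adjusted p = 0.373 with edgeR).

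Nefm, the medium chain, differed most between groups. Its level was 331 and 335 CPM in WT retina, 552 and 590 in P15 rd10 retina, 396 and 421 at P18, and 318 and 309 at P21. The groups did not overlap anywhere, in the order P15 rd10, P18 rd10, WT and P21 rd10. The log2 fold change at P15 was 0.78 (95% interval 0.50 to 1.06; unadjusted p = 0.000175, adjusted p = 0.0529 with edgeR). The adjusted p was 0.00557 when only the 4 libraries of this comparison were fitted, a fit that called 223 genes instead of 47, and 7.05e-07 with DESeq2, and over the 16 alternative settings it ran up to 0.313, when replicate 1 of WT was left out.

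Nefh, the heavy chain that accumulates as axons mature, was at 184 and 189 CPM in WT retina, 258 and 257 in P15 rd10 retina, 216 and 204 at P18, and 169 and 161 at P21. Its groups followed the same order as those of Nefm, also without overlap. The log2 fold change at P15 was 0.47 (95% interval 0.20 to 0.73; adjusted p = 0.152 with edgeR and 0.0153 with DESeq2).

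The chains did not keep a constant ratio. Counts of Nefm over Nefl within a library were 0.358 and 0.367 in WT retina, 0.503 and 0.509 in P15 rd10 retina, 0.403 and 0.457 at P18, and 0.406 and 0.406 at P21. The WT pair was the lowest and the P15 rd10 pair the highest, so the medium chain was higher relative to the light chain at P15 in a measure that needs no scaling between libraries. Nefh over Nefl varied less, from 0.199 in WT to 0.235 in P15 rd10 retina. Nefl (chr14:68083863-68089095, plus strand) and Nefm (chr14:68082590-68124846, minus strand) overlap on opposite strands and share 1108 exonic bases in GENCODE M21, or 32.8% of the exons of Nefl and 19.2% of those of Nefm. The strand setting of the counting is not given in the sources used here, so reads from that stretch cannot be told apart and the size of the ratio is uncertain.

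Thy1 encodes a glycoprotein of the neuronal surface, long used to purify ganglion cells. It was at 219 and 228 CPM in WT retina, 257 and 247 in P15 rd10 retina, 273 and 233 at P18, and 215 and 218 at P21. Both P15 and P18 rd10 pairs lay above WT and the P21 pair below it, all by small amounts. Thy1 had the smallest difference of the members at P15, with a log2 fold change of 0.17 (95% interval -0.12 to 0.47).

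Slc17a6 was at 119 and 130 CPM in WT retina, 164 and 161 in P15 rd10 retina, 112 and 119 at P18, and 120 and 115 at P21. Only the P15 rd10 pair stood apart, and the other 6 libraries lay close to each other. The log2 fold change at P15 was 0.38 (95% interval 0.11 to 0.66; unadjusted p = 0.0125, adjusted p = 0.246 with edgeR).

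At P18 and P21 the median difference of the members from P15 WT retina was small. In P18 rd10 retina 7 members were higher and 3 lower than in WT, with a median log2 fold change of 0.06. With library size only, 9 were higher and 1 lower. With TMM scaling the intervals for the 10 members ran from -0.64 to 0.91. The libraries separated upward for 4 members and downward for 2, compared with 24.1% and 22.9% of all genes. No member was called (1.48% of all genes were), and 2 (Sncg and Nefm) were higher at an unadjusted p under 0.05, compared with 9.94% of genes. DESeq2 also called none and gave 2 at an unadjusted p under 0.05. Nefm was the member with a log2 fold change of 0.29 (unadjusted p = 0.04, adjusted p = 0.263 with edgeR).

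In P21 rd10 retina 3 members were higher and 7 lower than in WT, with a median log2 fold change of -0.08. Libraries separated upward for 2 members (24.9% of all genes) and downward for 5 (24.2% of all genes). No member was called, against 0.386% of genes, and 0 had an unadjusted p under 0.05 in either direction, against 7.25% of genes higher and 4.56% lower. DESeq2 called none, with 1 member at an unadjusted p under 0.05. The intervals for the 10 members ran from -0.55 to 0.89. These values depended on the scaling. With library size only, 7 members were higher and 3 lower, and the intervals ran from -0.46 to 1.03. When libraries were scaled on amacrine and bipolar genes, 1 was higher and 9 were lower, 2 members had an unadjusted p under 0.05, and the intervals ran from -0.92 to 0.75. Without WT retina of P21, this compares rd10 retina with younger WT retina.

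Within the rd10 retina, members were lower after P15. At P18, 8 of the 10 were lower than at P15, all with separate libraries (20.4% of all genes separated downward), and the median log2 fold change was -0.39. Sncg and Thy1 were the exceptions, with log2 fold changes of 0.07 and 0.01 and overlapping libraries. Without replicate 1 of P18, in which short genes were high, all 10 members were lower than at P15, Sncg at -0.26 and Thy1 at -0.12. Unadjusted p was under 0.05 for 5 members, all lower (5.47% of genes), and none was called (0.591% of genes). The values of these 5 were -0.36 for Pou4f1, -0.69 for Pou4f3, -0.48 for Nefm, -0.29 for Nefh and -0.50 for Slc17a6. DESeq2 called no member, with 2 (Nefm and Slc17a6) at an adjusted p under 0.05, compared with 4.12% of genes. It gave 6 members at an unadjusted p under 0.05.

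By P21 all 10 members were lower than at P15, with separate libraries for each, whereas 25.5% of all genes separated downward. The median log2 fold change was -0.47. Nefm fell by 0.87 on the log2 scale (95% interval -1.15 to -0.59, adjusted p = 0.0342 with edgeR), to 0.549 of its P15 level. In the edgeR fit it was the only member past the adjusted p, which 0.43% of all genes passed. It did not reach the fold change needed for a call, and no member was called (0.401% of genes). Its adjusted p was 0.0635 with the replicate block, and ran from 0.173 to 0.269 without a P15 rd10 library and from 0.124 to 0.203 without a P21 library. Without either P18 library it was 0.00261 or 0.00267.

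Unadjusted p was under 0.05 for 6 members, all lower (5.44% of genes). The log2 fold changes were -0.65 for Nefh (adjusted p = 0.0694 with edgeR), -0.55 for Nefl, -0.52 for Sncg, -0.47 for Slc17a6 and -0.40 for Pou4f1. DESeq2 put 4 members past an adjusted p under 0.05, compared with 4.16% of genes. When only the 4 libraries of this comparison were fitted, 5 members had an adjusted p under 0.05, namely Nefm, Nefh, Nefl, Sncg and Slc17a6. This fit put more genes past the adjusted p in general, 2% of those tested, and called 196 genes instead of 82. The same P15 rd10 libraries enter this comparison and the one with WT at P15, so the 2 results are not independent of each other.

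**Figure D3:**
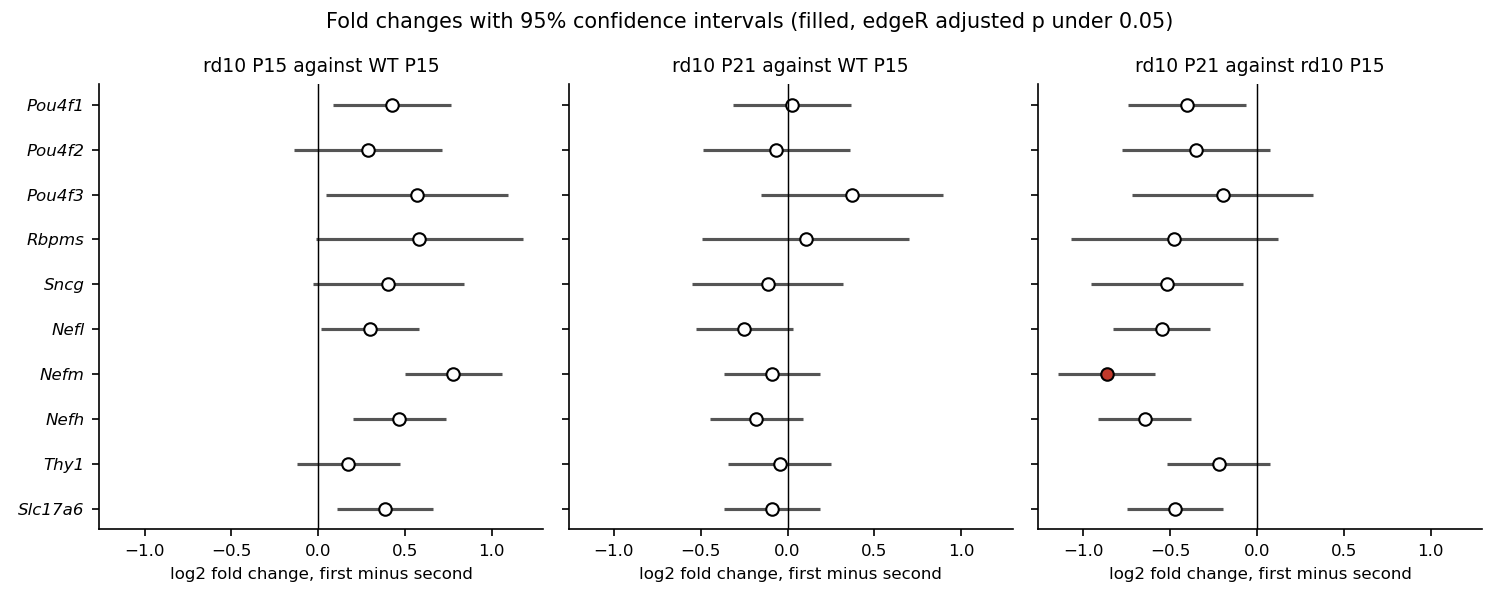
Log2 fold changes with 95% confidence intervals (horizontal axis, first group minus second) of the 10 genes in 3 comparisons from the edgeR fit. Values lie above 0 for all genes in P15 rd10 against WT, around 0 in P21 rd10 against WT and below 0 for all genes in P21 against P15 rd10 retina, with Nefm as the filled point.

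Between P18 and P21, 6 members were lower and 4 higher, with a median log2 fold change of -0.13. Libraries separated downward for 5 members (22% of all genes) and upward for Pou4f3 alone (21% of all genes). The synuclein and the 3 neurofilament genes had an unadjusted p under 0.05, all lower, compared with 6.04% of genes. Sncg was at -0.59, Nefm at -0.38, Nefh at -0.35 and Nefl at -0.30 on the log2 scale, and their smallest adjusted p was 0.431 with edgeR. No member was called, and 0.0196% of all genes were. DESeq2 called none and gave 4 members at an unadjusted p under 0.05.

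The members varied together to different degrees. The Pearson correlation of a gene's log2 CPM with the mean of the other members over the 8 libraries was 0.95 for Nefm, 0.93 for Nefh, 0.90 for Slc17a6 and 0.88 for Pou4f1, and was lowest for Pou4f3 (0.44), Sncg (0.48) and Rbpms (0.50). The closest pairs were Nefl with Nefh, Sncg with Thy1 and Nefm with Nefh (each 0.97). The least alike pair was Rbpms with Sncg (-0.12). These values describe 8 libraries that share groups, scaling and the length effect of the P18 replicate. Among 10988 genes with a mean of at least 10 CPM, the patterns most like the mean of the members were those of Bdh1 (r = 0.99), Kpna3 (0.97), Cdc42se2 (0.97), Gpm6b (0.96) and Rgs5 (0.96). Rgs5 is known as a pericyte gene.

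Other ganglion cell genes were taken as 4 lists. Of 12 further transcription factors, 11 were higher in P15 rd10 than in WT retina, with a median log2 fold change of 0.56. Sox4, which promotes neuronal differentiation and axon growth, was the one called. It was at 29.6 and 29.7 CPM in WT retina and 88.7 and 76.0 in P15 rd10 retina, and rose by a log2 fold change of 1.48 (adjusted p = 0.0176 with edgeR). This call was lost with a term for Y-linked RNA (adjusted p = 0.0811) and without any 1 of the WT, P15 rd10 or P21 rd10 libraries (0.054 to 0.169), while the fold change stayed between 1.36 and 1.72 in all 16 settings.

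Of 10 genes of axons and the cytoskeleton, all 10 were higher at P15 (median log2 fold change 0.52) and none was called. Gap43, a protein of growing axons, had the smallest p of this list, with 34.7 and 38.2 CPM in WT and 82.1 and 77.7 in P15 rd10 retina and a log2 fold change of 1.13. In contrast, 16 markers of ganglion cell subtypes and other markers were split, with 7 higher and 9 lower and a median of -0.08. Chrna6, a nicotinic receptor subunit, had the smallest p of these and lay lower, at 172.6 and 200.4 CPM in WT and 149.6 and 142.8 in P15 rd10 retina.

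At P18, peripherin (Prph), an intermediate filament protein of neurons with long axons, was called in the axon list. It was at 7.36 and 7.38 CPM in WT, 11.7 and 8.25 in P15 rd10, 63.3 and 57.2 in P18 rd10 and 16.5 and 17.3 in P21 rd10 retina. It rose by a log2 fold change of 3.03 over WT (adjusted p = 0.0013 with edgeR), and its adjusted p over the 16 alternative settings was at most 0.0391. Both P18 libraries were far above all others, although they differed in other respects. None of the neurofilament genes showed this pattern.

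Of 8 genes of the axon injury response, all 8 were higher in P18 rd10 than in WT retina and Atf3, a stress-induced transcription factor, was called. Atf3 was at 3.55 and 4.69 CPM in WT, 2.13 and 3.35 in P15 rd10, 20.9 and 20.2 in P18 rd10 and 8.14 and 5.24 in P21 rd10 retina. It rose by a log2 fold change of 2.31 over WT (adjusted p = 0.0222 with edgeR). The adjusted p was 0.181 or 0.0928 without replicate 1 or 2 of WT. Ecel1 of this list was listed at 0 in both WT and both P21 libraries, where 3 counts would be 0.0856 to 0.111 CPM, at 0.605 and 0.67 CPM in P15 rd10 retina, and at 1.64 and 1.42 at P18. Prph and Atf3 are not specific to ganglion cells, and the cells that held this RNA were not identified. Of the glial genes, 2 named after their values were seen were also highest at P18, although the sum of 8 Müller glia genes was not (4470 to 5220 CPM in WT and 4280 to 4330 at P18). Gfap, a filament protein of astrocytes and reactive Müller glia, was at 27.3 and 43.0 CPM in WT, 28.1 and 25.0 in P15 rd10, 362.7 and 398.5 in P18 rd10 and 126.1 and 119.8 in P21 rd10 retina, with a log2 fold change of 3.44 at P18 over WT (adjusted p = 0.000745 with edgeR). Vim, another filament gene of glia, was at 117.3 and 106.8 CPM in WT, 211.6 and 157.3 in P15 rd10, 355.2 and 337.5 in P18 rd10 and 129.7 and 209.4 in P21 rd10 retina, with a log2 fold change of 1.63 at P18 (adjusted p = 0.0222 with edgeR, 0.106 to 0.169 without replicate 1 or 2 of WT or replicate 1 of P18). Their part in the levels of Prph and Atf3 was not tested.

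**Figure D4:**
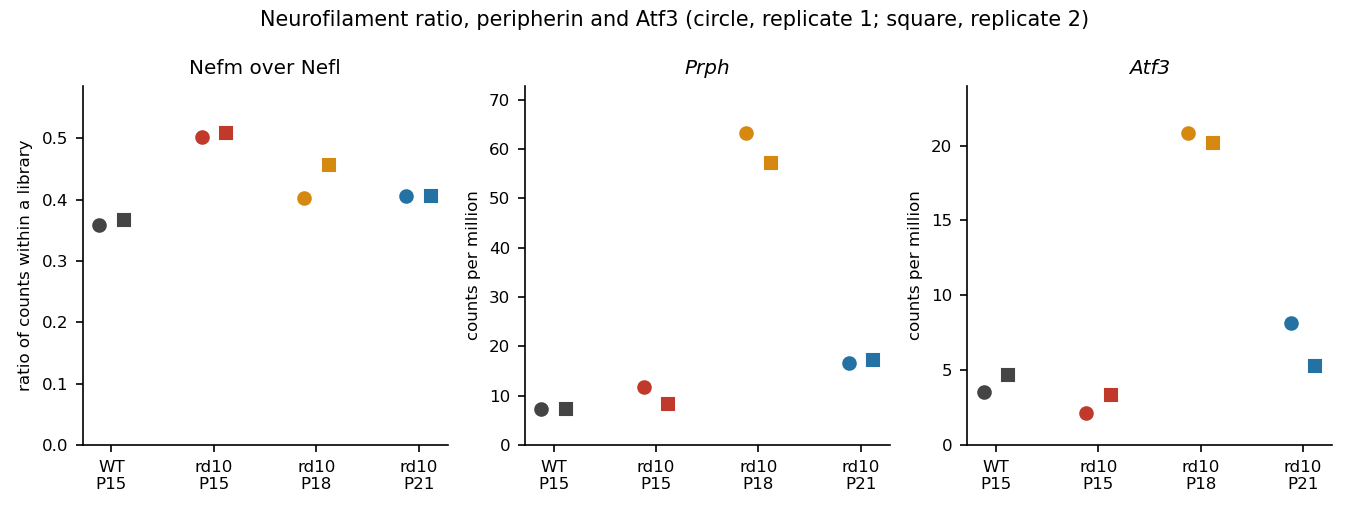
Ratio of Nefm to Nefl counts within a library, and the levels of Prph and Atf3 in CPM, in the 2 libraries of each group (vertical axes from 0). The ratio is highest in P15 rd10 retina (0.503 and 0.509), whereas Prph (63.3 and 57.2) and Atf3 (20.9 and 20.2) are highest at P18.

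Rod and cone markers also differed between these groups, whereas the amacrine and bipolar sums of WT and P15 rd10 retina overlapped. Summed over 10 rod genes, the level was 49390 and 39650 CPM in WT, 30090 and 32030 in P15 rd10, 25410 and 26580 in P18 rd10 and 19570 and 25230 in P21 rd10 retina. The rod sum was lower in every rd10 library than in both WT libraries, and lower at P18 and P21 than at P15, while the ganglion cell members were highest in P15 rd10 retina. The 8 cone genes summed to 1487 and 1140 CPM in WT, 671.9 and 765.7 in P15 rd10, 955.4 and 917.9 in P18 rd10 and 1170 and 1270 in P21 rd10 retina. All 8 were lower at P15 than in WT, and cone arrestin (Arr3) was called, with a log2 fold change of -1.71 (adjusted p = 0.015 with edgeR, 0.0832 to 0.141 without replicate 1 of WT, without a P15 rd10 library or with a term for Y-linked RNA). The cone sum was thus lowest in the group in which the ganglion cell members were highest. The 10 amacrine genes summed to 1191 and 1369 CPM in WT and 1376 and 1365 in P15 rd10 retina, and the 10 bipolar genes to 1781 and 1850 and to 2231 and 1680. Of 7 horizontal cell genes, 6 were higher in P15 rd10 than in WT retina, with a median log2 fold change of 0.21 and none called. When libraries were scaled on amacrine and bipolar genes, all 10 members were still higher at P15, their median log2 fold change being 0.32, with 1 unadjusted p under 0.05.

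The P15 rd10 libraries were also those with the most RNA of pericytes and pigment epithelium. All 8 pericyte and smooth muscle genes were higher than in WT, and their sum was 124.7 and 123.6 CPM in WT, 235 and 257.9 in P15 rd10, and 143.4 to 156.3 later. The 8 pigment epithelium genes summed to 41.1 and 155.3 CPM in WT, 212.4 and 254.1 in P15 rd10, and 21.8 to 36.1 later, with 7 of the 8 higher in P15 rd10 than in WT retina. Of 7 endothelial genes, 5 were higher in P15 rd10 than in WT retina, although their sum overlapped between the groups. Cldn5, a tight junction protein of vessels, was called among these. It was at 8.87 and 8.19 CPM in WT, 33.9 and 34.4 in P15 rd10, 32.4 and 22.7 in P18 rd10 and 19.7 and 19.8 in P21 rd10 retina, with a log2 fold change of 2.00 at P15 (adjusted p = 0.015 with edgeR, 0.054 to 0.168 without any 1 of the WT, P15 rd10 or P21 rd10 libraries or with a term for Y-linked RNA). Cdh5, the endothelial cadherin, was at 1.62 on the log2 scale over WT (adjusted p = 0.0529 with edgeR). Microglial genes had another course, with 72.7 and 83.7 CPM in WT, 106.3 and 103.2 in P15 rd10, and 197.6 to 380 later. The part of cones, vessels, pigment epithelium and microglia in the level of the ganglion cell members was not tested. Of the markers of optic nerve oligodendrocytes, Mog, Olig1 and Olig2 were at or near 0 in all libraries.

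**Figure D5:**
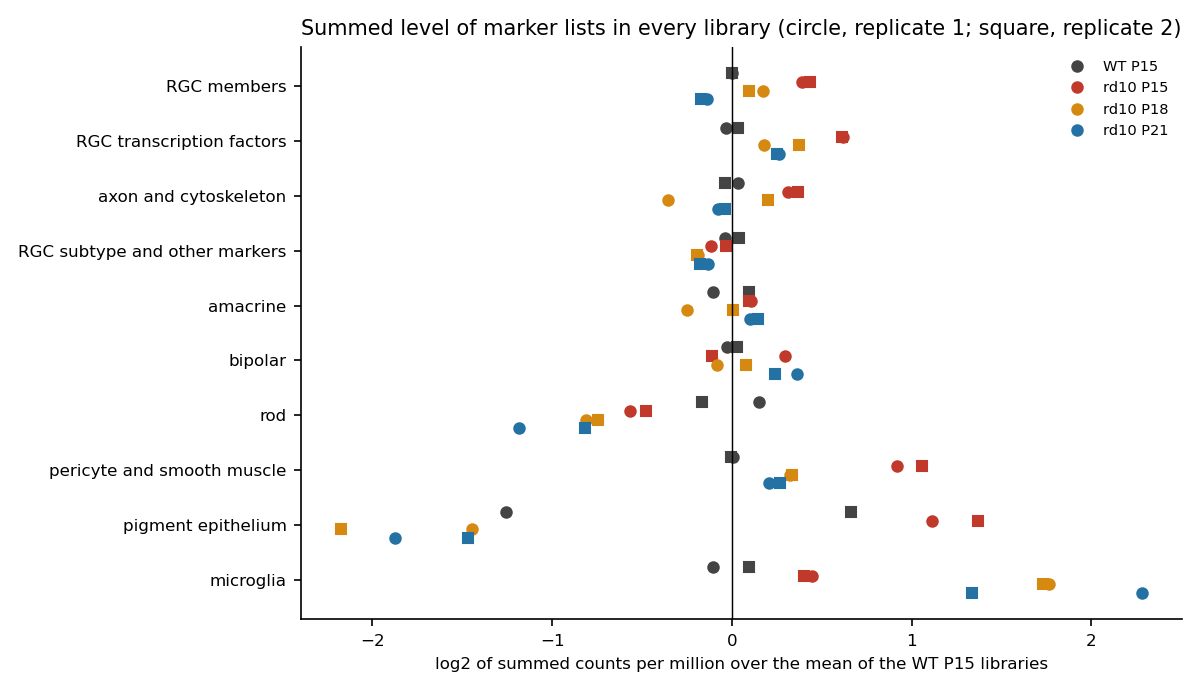
Summed CPM of marker lists in each library, as log2 over the mean of the WT libraries (horizontal axis). The ganglion cell members and transcription factors are highest in P15 rd10 retina, as are the pericyte and pigment epithelium lists, whereas rod genes are lowest and microglial genes are highest at P18 and P21.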

How the data were processed

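Poly(A) RNA of 8 retinas was sequenced by the study on an Illumina platform. The table deposited by the authors held raw read counts per Ensembl gene, 1 column per library and none unused. HISAT2 is named in the submitters' processing notes. For the counting tool, strand setting, genome build and annotation, nothing is given in the sources used here. Names of genes and exon lengths came from GENCODE M21 (GRCm38), which named 52029 of 57010 identifiers.

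Groups followed the labels. Genes were kept by filterByExpr (minimum count 10, total 15) and tested with edgeR 4.0.16 (TMM, quasi-likelihood F test, robust, 4 groups, 8 libraries) in R 4.3.3, with Benjamini-Hochberg adjustment over all 20457 tested genes. Calls followed the study's criteria, an adjusted p under 0.05 together with more than 1 log2 unit of change either way. Intervals are 95%. Log2 CPM used for correlations and replicate differences had a prior count of 2. The 28076947 to 33724562 counts per library limit precision for low genes only. The labels call the samples replicates, and separate animals are not stated, so p-values measure the spread between these libraries.

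Alternatives were DESeq2 1.42.0, RLE factors, library size only, scaling on amacrine and bipolar genes, no filter, fits of the 4 libraries at hand, a replicate block, a term for Y-linked RNA, no fold threshold and each library left out. Fits were tested on simulated data. Members and lists were chosen with earlier results of these data known. From the other lists, genes called are named, and otherwise the gene with the smallest p. Mog, Olig1, Olig2, Ecel1, Cdh5, Gfap, Vim, Arr3 and Cldn5 were named after their values were seen, as were the counts at an unadjusted p. The 5 most alike genes were those with the highest r with the mean of the members. Figures were drawn with matplotlib 3.10.9.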

Additional observations from a re-analysis of the deposited data

How the results depend on the processing

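In all 16 alternative fits the 10 members were higher in P15 rd10 than in WT retina and lower at P21 than at P15 within rd10. Fold changes turned for 2 members at P18 against P15 rd10, where Sncg (0.07) was -0.26 without replicate 1 of P18, the values without 1 library running up to 0.34, and Thy1 (0.01) was -0.12 without replicate 1 of P18 and -0.02 without replicate 2 of P15 rd10, running up to 0.12. No other fold change written in the text for a single member turned. Directions against WT at P18 and P21 depended on the scaling. At P18, 9 members were higher with library size only, instead of 7. At P21, 7 were higher with library size only and 1 when scaled on amacrine and bipolar genes, instead of 3. In fits with 2 libraries in every group, the number of members called was 0 in every comparison except in the following cases. It was 1 (Nefm) at P21 against P15 rd10 without a fold threshold and when scaled on amacrine and bipolar genes. Fits without a library leave 1 library in a group, so their calls are not counted. The log2 fold change of Nefm at P18 against P15 rd10 ran from -0.53 to -0.34 over the 16 alternative settings. At any p, 8 members were lower at P18 than at P15 rd10 in the main fit. It was also 8 by library size only, when scaled on amacrine and bipolar genes, and with only the 4 libraries. At P21 against P18, 6 were lower at any p, both in the main fit and with only the 4 libraries. The counts of higher or lower members that follow include only those with an unadjusted p under 0.05. Members higher at P15 with unadjusted p under 0.05, a count added after the data were seen, numbered 6, but 1 when scaled on amacrine and bipolar genes, 3 with the Y-linked term and 3 to 9 with a library left out. Members lower at P18 than at P15 rd10 numbered 5, but 3 by library size only, 0 when scaled on amacrine and bipolar genes, 3 with only the 4 libraries and 2 to 7 with a library left out. Members lower at P21 than at P18 numbered 4, but 0 with only the 4 libraries and 1 to 6 with a library left out. The cause of these shifts was not tested.

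With no scaling beyond library size, the median of all genes was 0.14 at P18 and 0.11 at P21 against WT on the log2 scale, and that of the members at P21 against WT was 0.04 instead of -0.08. Scaling on amacrine and bipolar genes moved the median of all genes at P21 against WT to -0.23 and that of the members to -0.31. The replicate numbers do not pair the libraries, since correlations of replicate differences between groups ran from -0.06 to 0.10. With the replicate block, 4 members had an unadjusted p under 0.05 at P15 against WT, and 0 were called. Leaving out either P18 library raised the genes called at P15 against WT from 47 to 228 or 225. With a term for Y-linked RNA, estimated from P18 and P21, where the libraries of a group differed in it, the 10 members were still higher at P15. At P18 the library with this RNA was replicate 1, in which short genes were high and long genes low. There the term cannot be told apart from that difference. Within P15 the libraries of each group were alike in this RNA, so they cannot separate sex from genotype. Against WT at P18 and P21, age and genotype cannot be told apart.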

Other observations

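The subtype and other ganglion cell markers had courses of their own after P15. Of the 16 genes, 8 were higher and 8 lower in P18 rd10 than in WT retina, and 3 were higher and 13 lower at P21, with median log2 fold changes of 0.02 and -0.15 and none called. Chrna6 had the smallest p at P18, where it was at 109.3 and 119.4 CPM and lower than WT by 0.71 on the log2 scale (95% interval -1.01 to -0.40; adjusted p = 0.04 with edgeR, and from 0.000238 to 0.206 over 16 alternative settings). Kcng4, a potassium channel subunit of alpha ganglion cells, had the smallest p at P21. It was at 30.8 and 34.9 CPM in WT, 49.0 and 40.8 in P15 rd10, 52.0 and 61.1 in P18 rd10 and 62.7 and 46.7 in P21 rd10 retina, above WT in all 6 rd10 libraries. Its log2 fold change over WT was 0.74 at P21, with an adjusted p of 0.16 by edgeR.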
